A study of Homo sapiens with 42 samples.

Results

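The entries described here are human miRNA names from miR-6715 to miR-6895, a block of names rich in mirtrons, followed through cell line, cell fraction, confluency and AGO1-4 immunoprecipitation (IP). Members were selected on their measured values: an entry was taken when its counts summed to at least 50 over 34 fraction libraries. Of 353 entries with such a name, 81 met this rule and 272 did not, and 2 of the latter had no count. The whole table held 2657 entries. Because the fraction counts chose the members, their presence in the fractions is a description. Just inside the threshold lay miR-6720-5p with 53 counts, miR-6769b-5p with 52, miR-6820-5p with 51 and miR-6877-3p with 50. Just outside lay miR-6894-5p and miR-6855-5p with 48 counts each, miR-6821-5p with 47 and miR-6784-5p with 46.

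A mirtron is a miRNA whose hairpin is cut out of a host transcript by splicing in place of the nuclear Microprocessor complex. After the spliced lariat is opened, the intron folds into a hairpin that Dicer can cut, and in tailed mirtrons the hairpin fills only the part of the intron next to a splice site while exonucleases trim the rest. A mature miRNA acts once it is loaded into an Argonaute (AGO) protein, where its seed, bases 2 to 8, pairs with target RNAs. Many mirtrons are short, rich in G and C, and made at low level.

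The study asked how cell density shapes AGO proteins and the miRNAs of 3 wild-type human lines: HEK293 (embryonic kidney), A375 (melanoma) and SHSY5Y (neuroblastoma). Each untreated line was grown subconfluent or confluent and split into cytoplasm and nucleus, giving 12 groups of 3 small RNA libraries. In HEK293, AGO1-4 were also pulled down with the T6B peptide, a fragment of an AGO-binding protein, in 3 subconfluent and 3 confluent libraries. The sources give the material of the pull-down both as whole lysate and as cytoplasm. No treatment, deletion or transgene separated the groups. Each line is 1 established line, so differences between lines are differences between these 3 cultures, and nothing states that the numbered fraction libraries came from separate cultures, so p-values measure the spread between these libraries only.

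The 34 fraction libraries used held between 9817 and 53775 counts (median 23407) and the 6 IP libraries between 910753 and 1124959. Confluent nucleus replicate 3 of HEK293 and of SHSY5Y held 39 and 31 counts and was left out, so those groups have n = 2. The study names the subconfluent cytoplasmic and the confluent nuclear libraries of every line in 2 ways, each under the other's name. Groups here follow the deposited column names, which match the sample labels, and a count of members within a line that moves by over 1.5 times when these names are exchanged is given with both values. Comparisons of levels between lines average all 4 groups of a line and the IP has its own columns, so neither depends on this. The interaction test of confluency with line does depend on it and was run under the deposited names only. Each group of a line carried its own set of 3′ adapters and all libraries of a line shared an index primer, so adapter and group, and pool and line, cannot be told apart. Line markers followed the labels for HEK293, with a summed level of 5 HOX-cluster and kidney miRNAs between 43593 and 94614 counts per 1000000 (CPM) against at most 14548 in A375 and 11022 in SHSY5Y. The 6 miRNAs listed for melanocytes summed to 4265 to 28843 CPM in A375 and at most 1123 in the other lines, but miR-146a-5p alone carried this (9390 CPM in A375, 330 in HEK293), and miR-211-5p, miR-204-5p, miR-508-3p and miR-509-3p were lower in A375 than in HEK293, so this list does not bear out the A375 label. The 8 neural miRNAs overlapped between SHSY5Y (6951 to 23368 CPM) and HEK293 (6428 to 13615 CPM). The 10 miRNAs of blood, endothelium, liver and mesenchyme summed to between 205 and 3254 CPM in all lines, and of them miR-144-3p was at 0 in HEK293 and A375.

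The mature sequences of the members that carry the results are shown first, from RefSeq (GRCh38.p14), 5′ to 3′, with the seed in capitals. The first 12 are the members with the most counts.
miR-6805-3p: uUGCUCUGcucccccgcccccag
miR-6796-3p: gAAGCUCUccccuccccgcag
miR-6724-5p: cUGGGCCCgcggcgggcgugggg
miR-6790-3p: cGACCUCGgcgaccccucacu
miR-6751-3p: aCUGAGCCucucucucuccag
miR-6869-5p: gUGAGUAGuggcgcgcggcggc
miR-6836-3p: aUGCCUCCcccggccccgcag
miR-6803-5p: cUGGGGGUggggggcugggcgu
miR-6729-3p: uCAUCCCCcucgcccucucag
miR-6789-5p: gUAGGGGCgucccgggcgcgcggg
miR-6820-3p: uGUGACUUcuccccugccacag
miR-6892-3p: uCCCUCUCccaccccuugcag
The next 3 are shown because both arms of miR-6763 and of miR-6836 are described in the results, and the last is the member with the most IP counts.
miR-6763-5p: cUGGGGAGuggcuggggag
miR-6763-3p: cUCCCCGGccucugcccccag
miR-6836-5p: cGCAGGGCccuggcgcaggcau
miR-6720-5p: uUCCAGCCcugguaggcgccgcg

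The 3p arms printed here, other than miR-6790-3p, were rich in C and U and closed by CAG, the letters of a splice acceptor, and most of the 5p arms held runs of G. In the hairpin of miR-6805 (chr19:55388181-55388242, plus strand) the mature 3p arm, in capitals, forms the last bases of an intron of RPL28, a ribosomal protein gene.
miR-6805 hairpin: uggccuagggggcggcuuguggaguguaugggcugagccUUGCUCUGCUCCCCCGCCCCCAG
That intron is 194 bases long, so 132 bases of it lie before the hairpin. In the hairpin of miR-6790 (chr19:6392921-6392983, minus strand) the order is turned round: the hairpin starts at the first base of an 80-base intron of GTF2F1, a subunit gene of the transcription factor TFIIF, and 17 bases of intron follow it.
miR-6790 hairpin: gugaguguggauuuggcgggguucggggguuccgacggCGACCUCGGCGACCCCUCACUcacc

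Of the 81 members, 68 matched a RefSeq mature name and 13 did not. The matched members came from 58 hairpins, of which 49 (84.5%) ended at the last base of a GENCODE intron. Counted by member, 59 of 68 (86.8%) had a hairpin that ended at an intron's 3′ end, 7 of them also starting at its 5′ end, and 2 more started at an intron's first base. The remainder lay inside an intron (2), over exons (2) or elsewhere (3). Among other entries with at least 50 counts, 31 of 499 matched (6.21%) had a hairpin ending at an intron end, and among names of the same block under 50 counts 202 of 220 (91.8%) did, so the position was shared by the counted and the uncounted names of the block. Their 49 different introns measured between 75 and 4350 bases (median 220), and 16 of them were 120 bases or shorter. Hosts of the leading members were PLD3 (miR-6796), SYVN1, an endoplasmic reticulum ubiquitin ligase (miR-6751), SNX8, a sorting nexin (miR-6836), PPP6R1, a regulatory subunit of a protein phosphatase (miR-6803), MIIP (miR-6729), PLEKHJ1 (miR-6789), POLR2F, an RNA polymerase subunit (miR-6820), and ZYX, the focal adhesion protein zyxin (miR-6892). For miR-6765 (chr14:105150778-105150864, minus strand) the 87-base hairpin was the whole intron of JAG2, a Notch ligand.

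The name range also held entries that are not mirtrons by position. miR-6724-5p has 2 annotated copies on chromosome 21, and the hairpin at chr21:8432530-8432621 ends 601 bases before the start of RNA45SN1, a ribosomal RNA gene. miR-6720 (chr6:1390314-1390411, minus strand) overlapped no annotated intron. The members were rich in G and C, with a median of 70.7% (range 43.5 to 91.3) against 54.5% in other entries with at least 50 counts and 47.6% in other entries detected in the IP. Of 34 matched 3p members 20 (58.8%) ended in CAG, against 9.64% of the other 3p entries with at least 50 counts, and 21 ended at the acceptor itself. Of 33 matched 5p members 22 (66.7%) held GGGG, against 10.9%. Only 2 seeds were shared within the set: AGCCUCU by miR-6819-3p and miR-6877-3p, and UGGGCCC by miR-6724-5p and miR-6773-5p.

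**Figure D1:**
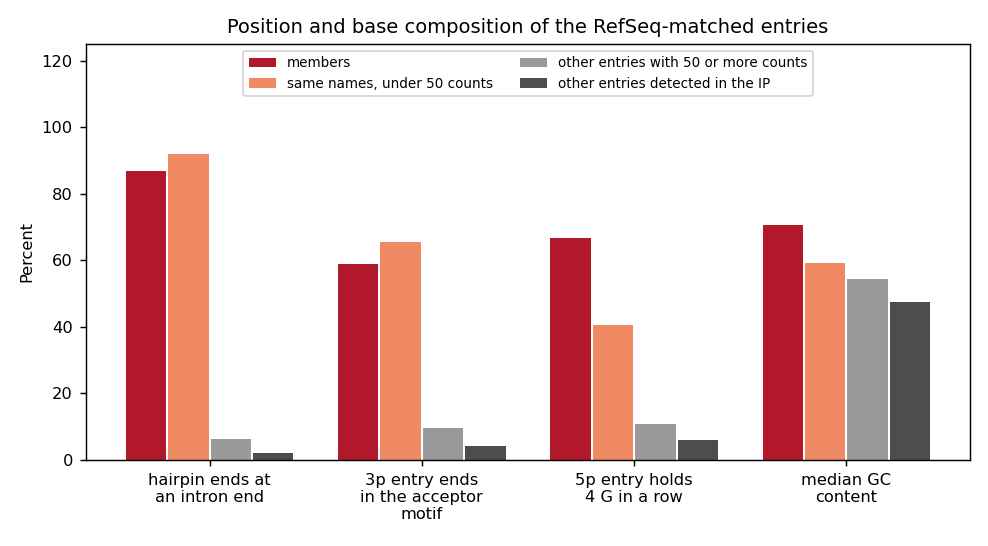
Bars give, in percent, the share of RefSeq-matched entries whose hairpin ends at an intron end, the share of 3p entries that end in the acceptor letters, the share of 5p entries that hold 4 G in a row, and the median GC content, for the members and 3 other sets. Members stand at 86.8, 58.8, 66.7 and 70.7, and other entries with 50 or more counts at 6.21, 9.64, 10.9 and 54.5.

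The members' counts were concentrated in a few names. Together they held 48368 of 851708 fraction counts (5.68%). miR-6805-3p alone had 9324 counts, 19.3% of the members' total and rank 21 among all entries. It was followed by miR-6796-3p (4406 counts), miR-6724-5p (4336), miR-6790-3p (3103), miR-6751-3p (2605) and miR-6869-5p (2538), and these 6 held 54.4% of the members' counts. The leading 12 held 71.1%, the median member had 122 counts, 13 members had at least 1000 and 35 had under 100. By arm, 38 members were 5p, 42 were 3p and miR-6860 carries no arm. In 40 of the 65 hairpins with both arms in the table, the 3p arm had more counts, and in 25 the 5p arm did. The bias was strong for miR-6805 (9324 counts in 3p, 6 in 5p), miR-6796 (4406 and 23) and miR-6790 (3103 and 18), and turned for miR-6789 (1229 in 5p, 3 in 3p), miR-6803 (1583 and 10) and miR-6869 (2538 and 18). miR-6836 (1001 counts in 5p, 1644 in 3p) and miR-6765 (366 and 305) gave comparable numbers from their 2 arms.

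**Figure D2:**
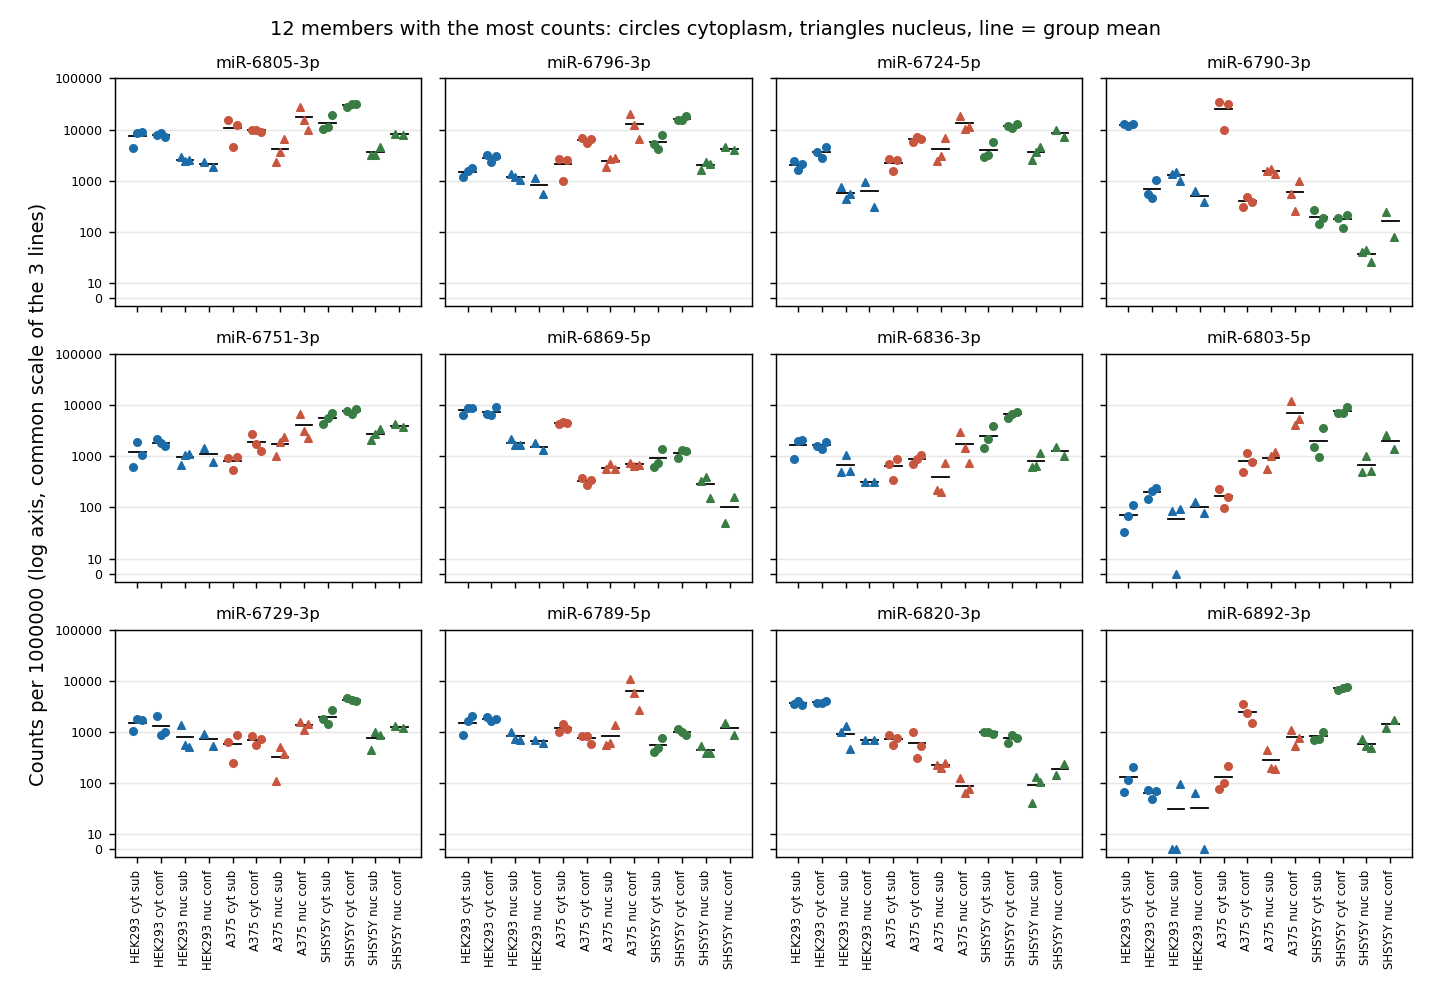
Each panel is 1 of the 12 members with the most counts, each point is 1 library, and lines are group means in CPM on a log axis with a common scale for the 3 lines (0 drawn at the foot). miR-6805-3p lies between 1849 and 31889 CPM over all libraries, whereas miR-6790-3p spans 25.6 to 34089 CPM.

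The share of a library held by the members differed between fractions in HEK293 and SHSY5Y. In HEK293 it was 6.99% ± 1.08 (SD, n = 3) in subconfluent and 5.38% ± 0.648 (n = 3) in confluent cytoplasm, and 1.84% ± 0.380 (n = 3) and 1.37% ± 0.376 (n = 2) in the matching nuclei. No nuclear library of HEK293 reached the lowest cytoplasmic library (4.79%). In SHSY5Y the cytoplasm held 5.88% ± 1.58 and 13.7% ± 0.642 (n = 3 each) and the nucleus 1.59% ± 0.307 (n = 3) and 5.20% ± 0.765 (n = 2). An exact two-sided permutation test within confluencies gave p = 0.005 in each of these 2 lines, the smallest it allows, and 0.025 after Benjamini-Hochberg adjustment over 10 comparisons. In A375 the cytoplasm held 6.64% ± 2.28 and 4.26% ± 0.340 and the nucleus 2.23% ± 0.547 and 8.02% ± 3.63 (n = 3 each), and the nuclear share differed from the cytoplasmic by -0.326 percentage points (exact permutation p = 0.91). The confluent nuclear libraries of A375 spread from 4.92% to 12%. Within a fraction, 3 libraries against 3 cannot go below an exact p of 0.1, which A375 nucleus, SHSY5Y cytoplasm and the IP reached with groups that did not overlap. With the names exchanged, the nuclear minus cytoplasmic difference in HEK293 turned from -4.58 to 1.04 percentage points (exact permutation p = 0.04), while that in SHSY5Y was -5.72 (p = 0.005) and that in A375 -1.71 (p = 0.395). The confluent minus subconfluent difference then became 4.01 percentage points in HEK293 cytoplasm, from -1.61, and 5.15 in HEK293 nucleus, from -0.472. These are shares of bulk RNA, in which fewer cells with an entry and less of it per cell cannot be told apart.

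**Figure D3:**
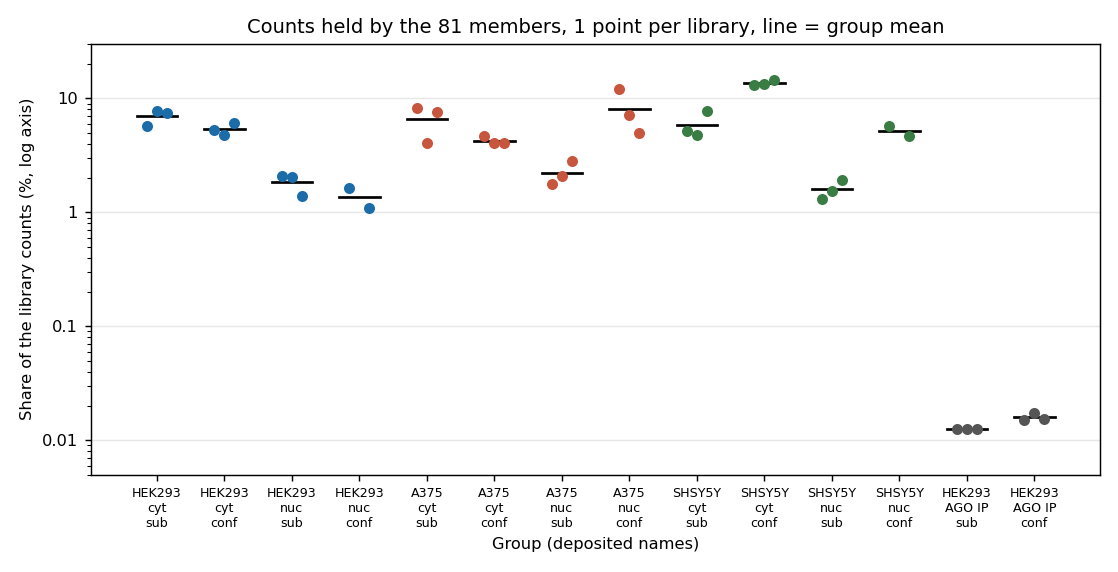
The share of each library's counts held by the 81 members, in percent on a log axis, for the 12 fraction groups and both IP groups under their deposited names (cyt, cytoplasm; nuc, nucleus; sub, subconfluent; conf, confluent). Fraction libraries lie between 1.1% and 14.4%, and the 6 IP libraries between 0.0125% and 0.0174%.

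The members were nearly missing from the AGO1-4 IP. They held 0.0126% ± 0.0000831 of the counts in subconfluent and 0.0160% ± 0.00125 in confluent IP libraries (SD, n = 3 each). Of the 81 members, 44 had no count among 6122631 IP counts, 26 had 1 to 9, and 11 had at least 10. With detection set at 10 counts in at least 3 IP libraries, 3 members (3.70%) were detected, against 334 of 633 other entries with at least 50 fraction counts (52.8%). Of 24 entries of earlier annotated mirtron families, taken at any fraction count and so not under the same threshold, 4 (16.7%) were detected. The rule used the fraction counts, HEK293 included, so HEK293 cytoplasm and IP are set side by side without a test. Pooled over 6 libraries each, all 81 members had a lower CPM in the IP than in HEK293 cytoplasm, as did 447 of the 630 other entries with a cytoplasmic count. Their median was 152.3 CPM in cytoplasm and 0 in the IP, against 252.2 and 13.3 for the other entries. The fractions and the IP were sequenced at different depth and in different pools, and the part of that in the difference was not tested.

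miR-6805-3p had 1878 counts in HEK293 cytoplasm (8937 CPM) and 188 in the nucleus (2523 CPM), and no count in any IP library. A count of 0 allows up to 0.490 CPM (3 counts over the 6 libraries), so the cytoplasmic level was at least 18239-fold higher. miR-6790-3p (7852 CPM in cytoplasm) and miR-6796-3p (2441 CPM) also had no IP count, which makes them at least 16024-fold and 4982-fold higher in the cytoplasm. miR-6869-5p had 8846 CPM in cytoplasm and 2 IP counts (0.327 CPM, exact Poisson 95% interval 0.0396 to 1.18). miR-6724-5p had 3136 CPM in cytoplasm and 1 IP count. miR-6820-3p was different: its 121 IP counts lay between 13 and 25 in every library, and its 19.8 CPM (16.4 to 23.6) stood 213-fold (176 to 259) under its 4202 CPM in cytoplasm. The intervals cover counting error only.

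The member with the most IP counts was near the bottom of the fraction list. miR-6720-5p, which overlaps no intron, had 53 counts in all fractions and 468 in the IP. Its IP level of 76.4 CPM (69.7 to 83.7) and its HEK293 cytoplasmic level of 90.4 CPM (19 counts) gave a ratio of 1.18 (0.706 to 1.87). The third detected member, miR-6797-3p from an intron of the ribosomal protein gene RPS19, had 73 IP counts and a cytoplasm to IP ratio of 6.39 (3.47 to 11.1). miR-6741-3p (36 IP counts), miR-6798-3p (34), miR-6873-3p (16) and miR-6732-3p (15) followed without passing the detection rule. Among names of the block that missed the 50-count rule, miR-6844 (39 fraction counts, 131 in the IP), miR-6803-3p (10 and 103) and miR-6720-3p (13 and 72) were detected. For miR-6803 the arm with 10 fraction counts thus had 103 IP counts, whereas the 5p arm with 1583 fraction counts had none.

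**Figure D4:**
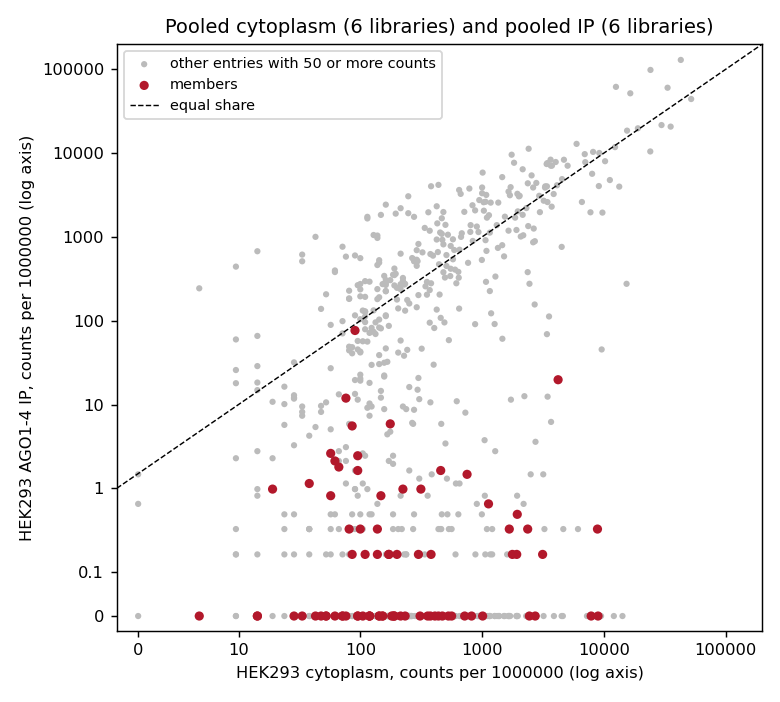
Each point is an entry with at least 50 fraction counts, placed by its CPM in pooled HEK293 cytoplasm and in the pooled AGO1-4 IP on log axes, with values of 0 drawn at the foot or left edge. All 81 members (red) lie under the line of equal share, most of them at or near 0 in the IP, while 183 of the other entries (grey) lie on or above it.

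In the IP, 3 members had enough counts for the test. miR-6720-5p had 54, 57 and 62 counts in the subconfluent and 87, 115 and 93 in the confluent libraries, and the groups did not overlap. It rose by 0.50 ± 0.16 (log2 fold change ± SE, adjusted p = 0.035 by edgeR's quasi-likelihood test), 1 of 3 members tested, where 18.4% of all 537 entries were higher and 16.8% lower. The IP p-values given here come from a fit that did not pair the libraries by number. This call was lost with DESeq2, without the low-count filter, and without confluent replicate 1 or 2 or any of the subconfluent replicates (0 members called each time). miR-6820-3p (0.28 ± 0.27, adjusted p = 0.45) and miR-6797-3p (-0.24 ± 0.29, adjusted p = 0.61) did not pass, with overlapping libraries. Each confluency of the IP had a pool of its own, and the effects of pool and of confluency cannot be told apart there.

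Differences between the lines were large for single members. All comparisons across entries used edgeR's quasi-likelihood test with Benjamini-Hochberg adjustment over every entry tested and a threshold of 0.05; 47 members passed the low-count filter over all lines and 34 members were tested in no comparison of the fractions. SHSY5Y had the highest mean level for 40 members, A375 for 22 and HEK293 for 19. For a member that passed the filter through 1 line alone, a call as higher in that line is favoured. Such members were not set apart in the counts that follow. Against HEK293, SHSY5Y had 27 of 47 members higher (background 37.9%) and 8 lower (background 33.1%), with a median log2 fold change of 1.29 against 0.05 over all entries. A375 had 16 of 47 higher (33.3%) and 5 lower (32.6%) than HEK293, with a median of 0.52 against 0.03, and the 5 became 3 without HEK293 confluent nucleus replicate 1. Scaling on the entries detected in the IP gave 21 higher and 3 lower. Against SHSY5Y, A375 had 6 of 47 higher (22.8%) and 19 lower (32.8%), with a median of -0.49 against -0.17. In SHSY5Y against HEK293 the 3p members were higher in 20 of 28 cases and the 5p members in 7 of 19.

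miR-6848-3p marked SHSY5Y. Its level lay between 394 and 6481 CPM (median 1366) in SHSY5Y and between 0 and 77.0 CPM (median 0) in HEK293, with A375 between them (74.8 to 442 CPM). The SHSY5Y and HEK293 libraries did not overlap. miR-6848-3p had at most 2 counts in any HEK293 library and at most 11 in any A375 library. It passed the filter through SHSY5Y libraries, which favours a higher call there, and is given without a test. miR-6771-5p, from an intron of the adenylate cyclase gene ADCY7, reached at most 83.8 CPM in HEK293 and 110 to 4888 CPM in A375 and 308 to 3648 CPM in SHSY5Y. It was higher in A375 than HEK293 by 5.19 ± 0.50 and in SHSY5Y by 5.81 ± 0.43, again without overlap. miR-6891-3p (5.11 ± 0.41), miR-6892-3p (4.53 ± 0.31) and miR-6803-5p (4.37 ± 0.32) were also higher in every SHSY5Y library than in any HEK293 library. Adjusted p-values by edgeR of the contrasts given here with a fold change were at most 1.9e-12.

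The opposite order was seen for miR-6790-3p, miR-6793-5p and miR-6869-5p. miR-6790-3p lay between 25.6 and 264 CPM in SHSY5Y and between 385 and 12608 CPM in HEK293, and was lower in SHSY5Y by 3.61 ± 0.30 on the log2 scale without overlap. Against SHSY5Y it was higher in A375 by 3.78 ± 0.28, where it lay between 259 and 34089 CPM and single libraries overlapped. miR-6793-5p, from an intron of the dynamin gene DNM2, lay between 430 and 7111 CPM in A375 and 40.3 and 343 CPM in SHSY5Y, a difference of 2.95 ± 0.26 without overlap. miR-6869-5p fell from a median of 6291 CPM in HEK293 to 661 CPM in A375 and 617 CPM in SHSY5Y, although single libraries overlapped. miR-6820-3p was likewise highest in HEK293 (median 3329 CPM, against 280 in A375 and 598 in SHSY5Y), and A375 and SHSY5Y did not differ in it beyond their spread (-0.10 ± 0.30, adjusted p = 0.85). The leading member, miR-6805-3p, was higher than in HEK293 by 1.15 ± 0.19 in A375 and 1.33 ± 0.19 in SHSY5Y, with overlapping libraries.

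**Figure D5:**
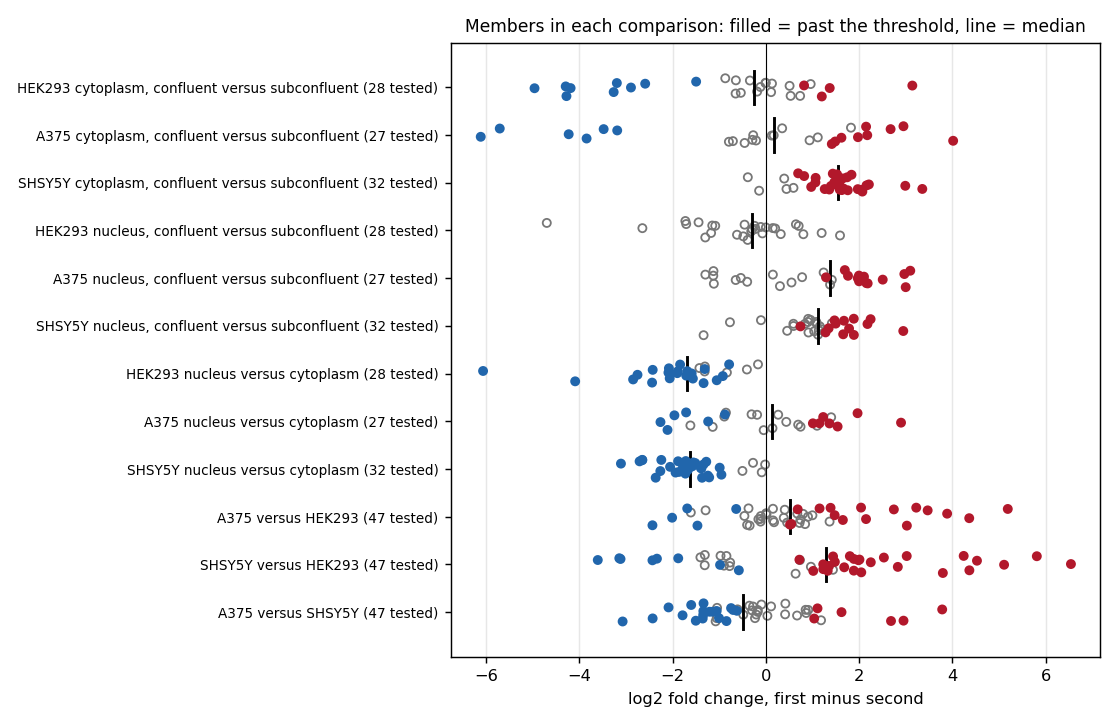
Log2 fold changes of every member tested, 1 row per comparison, with filled points past the threshold (red higher, blue lower), open points not past it, and a black line at the median. The rows of SHSY5Y cytoplasm (27 of 32 filled, all red) and of nucleus versus cytoplasm in HEK293 (22 of 28 filled, all blue) and SHSY5Y (28 of 32, all blue) hold filled points on 1 side only.

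Confluency in the cytoplasm moved members of HEK293 both ways. Of 28 tested, 4 were higher in confluent cells (background 6.38%) and 9 lower (background 22.0%), and the median was -0.27 against 0.02 over all 345 entries. miR-6790-3p had 14283, 13132 and 13525 CPM in the subconfluent and 538, 461 and 1161 CPM in the confluent libraries. It fell by 4.30 ± 0.33 on the log2 scale (adjusted p = 2.5e-09), with groups far apart. Of the 9 lower calls, 7 are of members that passed the low-count filter through the subconfluent cytoplasm alone and so could only be called lower. They are miR-6763-5p, miR-6865-5p, miR-6879-5p, miR-6816-5p, miR-6894-3p, miR-6722-3p and miR-6741-5p, and their values are given without a test. miR-6816-5p had 1144, 1854 and 1806 CPM in subconfluent and 164, 170 and 155 CPM in confluent libraries. miR-6865-5p had 18, 28 and 49 counts in subconfluent cytoplasm and at most 3 in any other HEK293 library. Of the 21 members with 10 or more counts in libraries of at least 2 groups, 4 were higher and 2, miR-6790-3p and miR-6801-3p, were lower.

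The 2 arms of miR-6763, a hairpin at the 3′ end of an intron of FBRSL1 (chr12:132581997-132582061, plus strand), were high in different groups. The 3p arm had 111, 203 and 281 CPM in subconfluent and 2434, 1699 and 1471 CPM in confluent HEK293 cytoplasm, and rose by 3.14 ± 0.39 (adjusted p = 2.3e-06). The 5p arm had 554, 914 and 662 CPM in subconfluent and 23.4, 0 and 38.7 CPM in confluent libraries. From its 84 and 2 counts the subconfluent level was 37.7-fold higher (exact 95% interval 10.1 to 316.4, counting error only). miR-6836-5p (1.20 ± 0.29), miR-6769a-3p (1.37 ± 0.50) and miR-6796-3p (0.82 ± 0.28) were the other members that rose.

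The HEK293 counts of calls rest on the subconfluent libraries. Without subconfluent replicate 1, 2 or 3, the members called higher were 1, 2 and 2 and the members called lower 1 each time, of 21, 21 and 20 tested, since a member counted in that group alone then misses the filter of 10 counts in 3 libraries. With the names exchanged, 12 members were higher and 0 lower, and scaling on the entries detected in the IP gave 2 and 9.

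In A375 cytoplasm 9 of 27 members were higher in confluent cells (background 14.3%) and 6 lower (background 14.0%), and the median was 0.17 against 0.00 over all 265 entries. miR-6790-3p showed the largest fall, from 33853, 8811 and 31280 CPM in subconfluent to 288, 398 and 360 CPM in confluent libraries (-6.12 ± 0.52, adjusted p = 4e-10). miR-6869-5p went from 4222, 4292 and 4453 CPM to 345, 228 and 315 CPM (-3.85 ± 0.43). miR-6793-5p fell too (-3.19 ± 0.42). The other 3 lower calls, of miR-6769a-3p, miR-6894-3p and miR-6722-3p, are of members that passed the filter through subconfluent cytoplasm alone and could only be called lower, so they are given as counts. miR-6769a-3p had 49, 12 and 33 counts in subconfluent and 2, 4 and 3 in confluent cytoplasm. miR-6894-3p had 14, 11 and 11 counts and 1, 0 and 4. miR-6722-3p had 81 and 2 counts in all, a subconfluent level 62.8-fold higher (exact 95% interval 16.8 to 527.1). miR-6803-5p (2.17 ± 0.62) and miR-6763-3p (1.98 ± 0.69) rose without overlap. miR-6892-3p, whose hairpin spans a whole intron of ZYX, had 76.8, 90.4 and 215 CPM in subconfluent and 3252, 1905 and 1396 CPM in confluent libraries. It and miR-6765-5p, miR-6891-3p, miR-6771-5p and miR-6787-5p are among the 9 higher calls. In any subconfluent A375 library they had at most 4, 7, 6, 7 and 7 counts. They passed the filter through confluent libraries alone, which favours a higher call, and are given without a test. The members higher fell to 2 without subconfluent replicate 2, and those lower to 3 without any of the subconfluent replicates, as members then missed the filter. With the names exchanged, 2 were higher.

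In SHSY5Y cytoplasm the movement was in 1 direction. Of 32 members tested, 27 were higher in confluent cells (background 33.6%) and 0 lower (background 25.3%), with 27 of 32 at an unadjusted p under 0.05 and 25 higher and 0 lower by DESeq2. The median was 1.54 against -0.02 over all 348 entries. Entries outside the block that were not detected in the IP were also mostly higher, 81 of 127 tested with a median of 1.16, whereas entries detected in the IP were higher in 9 and lower in 80 of 189 with a median of -0.71. miR-6892-3p had 671, 645 and 812 CPM in subconfluent and 6151, 7580 and 8430 CPM in confluent libraries (3.36 ± 0.30, adjusted p = 3.2e-11). miR-6836-5p rose from 336, 336 and 314 CPM to 1981, 2400 and 3585 CPM (2.99 ± 0.34). miR-6803-5p rose from 1427, 878 and 2824 CPM to 6506, 7390 and 10465 CPM (2.21 ± 0.33), and miR-6771-5p (2.16 ± 0.30) and miR-6786-5p (2.07 ± 0.39) followed. miR-6741-3p (16, 23 and 12 counts in confluent, 7, 2 and 7 in subconfluent cytoplasm) and miR-6743-3p passed the filter through confluent cytoplasm alone and could only be called higher, and among the other 30 members 25 were higher and 0 lower. The leading miR-6805-3p had 9569, 9991 and 15728 CPM in subconfluent and 26466, 33350 and 35996 CPM in confluent libraries (1.44 ± 0.23). Among members chosen by 50 counts in the other 2 lines, 23 of 28 tested were higher. Scaling on the entries detected in the IP raised the median of all entries to 0.56 and gave 29 members higher and 0 lower.

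The 3 lines were set against each other by an interaction test over all 34 libraries, run under the deposited names only. In the cytoplasm the confluency effect differed between lines for 20 of 47 members (background 37.9%). This count includes miR-6865-5p, which passed the filter through subconfluent HEK293 cytoplasm alone. It also includes miR-6743-3p, which passed through confluent SHSY5Y cytoplasm alone. For such entries a call is favoured. miR-6869-5p (adjusted p = 4e-09) fell in A375 and differed by -0.19 ± 0.25 in HEK293 and 0.59 ± 0.33 in SHSY5Y, neither past the threshold. miR-6790-3p (adjusted p = 2.3e-07) fell in HEK293 and A375, and was too low in SHSY5Y for the test there. Of the 16 members tested in every line, miR-6763-3p and miR-6796-3p were called higher in all 3, 8 were called in SHSY5Y alone, and miR-6820-3p was called in none.

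In the nucleus of HEK293 no member was called in either direction by edgeR's quasi-likelihood test (0 of 28, backgrounds 0.0% higher and 1.16% lower), 3 had an unadjusted p under 0.05 and DESeq2 also called 0. With the names exchanged 19 were higher. In A375 nuclei 13 of 27 members were higher in confluent cells (background 18.9%) and 0 lower (background 6.04%), with a median of 1.38 against -0.07. The 13 include miR-6892-3p, which had at most 4 counts in any subconfluent A375 library. It passed the filter through confluent libraries alone, which favours a higher call, and members of this kind were not set apart in the count. Outside the block, entries not detected in the IP were higher in 33 and lower in 2 of 89 cases (median 0.92). miR-6803-5p had 502, 969 and 1100 CPM in subconfluent and 12185, 3848 and 5036 CPM in confluent nuclei (3.0 ± 0.49, adjusted p = 0.00013). miR-6789-5p rose from 502, 582 and 1210 CPM to 10869, 5399 and 2590 CPM (2.97 ± 0.50). miR-6796-3p (2.51 ± 0.44), miR-6805-3p (2.18 ± 0.44) and miR-6836-3p (2.16 ± 0.57) rose too, without overlap. miR-6771-5p had 100, 582 and 385 CPM in subconfluent and 4967, 3165 and 1151 CPM in confluent nuclei. It passed the filter through confluent A375 libraries alone, which favours a higher call, and is given without a test. Confluent replicate 1 was the highest of the 3 for all 6 of these, and without it 8 members were higher. Without confluent replicate 3, 1 member was lower, and with the names exchanged 7 were higher and 1 lower.

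In SHSY5Y nuclei 13 of 32 members were higher in confluent cells (background 17.8%) and 0 lower (background 22.1%), with a median of 1.13 against 0.04. Similar shares were seen outside the block among entries not detected in the IP. There 47 of 127 were higher and 3 lower (median 0.95). miR-6756-3p had 359, 412 and 341 CPM in subconfluent and 1833 and 1671 CPM in confluent nuclei (2.25 ± 0.41, adjusted p = 4.8e-05). miR-6749-3p (2.95 ± 0.75), miR-6765-3p (2.18 ± 0.75), miR-6803-5p (1.89 ± 0.43), miR-6771-5p (1.89 ± 0.43) and miR-6891-3p (1.78 ± 0.44) rose as well. The first 2 rest on few counts. miR-6749-3p had 5 and 6 counts in confluent and 1, 2 and 1 in subconfluent nuclei. miR-6765-3p had 7 and 4 counts in confluent and 2, 2 and 3 in subconfluent nuclei. The confluent group has 2 libraries, and without replicate 1 the count was 7. It was 21 with library totals as the scale, 22 with scaling on IP-detected entries and 3 without the filter, and with the names exchanged it was 20. In the nucleus the confluency effect differed between lines for 5 of 47 members (background 8.16%).

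The nuclei of HEK293 and SHSY5Y held less of most members tested than the cytoplasm did. Of the 28 tested in HEK293, 22 were lower (background 35.1%) and 0 higher (background 18.8%), with a median of -1.70 against -0.28. The shift was shared by entries outside the block that were not detected in the IP. Of these, 84 of 124 were lower and 4 higher, with a median of -1.6. miR-6805-3p had 5020, 9398 and 9732 CPM in subconfluent and 7652, 8712 and 7779 CPM in confluent cytoplasm, and between 2432 and 3585 CPM in the 5 nuclear libraries (-1.57 ± 0.22, adjusted p = 8e-06). miR-6793-5p (-2.85 ± 0.35), miR-6820-3p (-2.09 ± 0.27), miR-6869-5p (-2.08 ± 0.22) and miR-6724-5p (-2.06 ± 0.29) were lower without overlap. miR-6756-3p lay lower without overlap too, with at most 2 counts in any nuclear library. It passed the filter through the cytoplasm alone and is given without a test. miR-6801-3p had 80 counts in cytoplasm and 0 in the nucleus, which makes the cytoplasmic level at least 9.46-fold higher over the group (3 counts as the limit). Of the 28, 16 had 10 or more counts in cytoplasmic libraries only, which favours a lower call. Among the 12 with such counts in both fractions 11 were lower, against 41 of 216 entries of that kind in the whole table. With the names exchanged, 4 members were higher and 1 lower.

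In SHSY5Y, 28 of 32 members were lower in the nucleus (background 37.4%) and 0 higher (background 33.9%), with a median of -1.63 against 0.02, and 24 of 28 members chosen by the other lines were lower. Among the 21 members with 10 or more counts in libraries of both fractions 18 were lower, against 82 of 287 entries of that kind in the whole table. miR-6765-5p (-2.24 ± 0.40) and miR-6848-3p (-2.06 ± 0.27) were lower without overlap. miR-6880-3p, miR-6869-5p, miR-6820-3p and miR-6819-3p also lay lower without overlap. Their counts were at most 2, 9, 4 and 5 in any nuclear library. They passed the filter through the cytoplasm alone, which favours a lower call, and are given without a test. miR-6820-3p, for example, had between 562 and 965 CPM in the 6 cytoplasmic and between 39.8 and 239 CPM in the 5 nuclear libraries. Entries outside the block that were not detected in the IP were lower in 90 of 127 cases (median -1.33), and entries detected in the IP higher in 112 of 189 (median 0.81).

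In A375 the members split, with 7 of 27 higher (background 7.55%) and 6 lower (background 14.0%) in the nucleus and a median of 0.14 against 0.03. Only miR-6820-3p was past the threshold without overlap between the fractions. It had at most 4 counts in any A375 nuclear library. It thus passed the filter through the cytoplasm alone, which favours a lower call. Without subconfluent nucleus replicate 3, 4 members were higher, and with the names exchanged 15 were lower. Scaling on the entries detected in the IP gave 6 higher and 3 lower. The members with the 3 largest rises in confluent A375 nuclei, miR-6771-5p, miR-6803-5p and miR-6789-5p, had at most 921, 938 and 1310 CPM in any A375 cytoplasmic library.

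Other short-hairpin entries, listed for comparison, were few. Of 24 entries of earlier annotated mirtron families 3 were tested in SHSY5Y, and all 3 were higher in confluent cytoplasm and lower in the nucleus, with medians of 1.4 and -1.32. In HEK293 4 were tested, of which 3 were lower in the nucleus. Of 3 entries of miR-320a and miR-484, whose precursors also bypass part of the usual processing, 2 were tested, and both were higher in the nucleus of HEK293 (median 0.88) and of SHSY5Y (median 0.70). Over the 12 group means, the entries whose level was most like the members' summed level were miR-10400-5p (Pearson r = 0.946), miR-12116 (r = 0.945) and miR-6089 (r = 0.907). These are descriptions over groups that share libraries, and none of these 3 entries had an IP count.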

How the data were processed

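Small RNA libraries of cytoplasm, nucleus and AGO1-4 IP were sequenced by the authors, trimmed with cutadapt and mapped to human miRNAs with Bowtie2. bedtools and hg38 are named in the submitters' processing notes. The deposited values are raw counts per miRNA name, with no normalization. The 12 missing values were taken as 0 in sums and shares, and an entry with a missing value in the libraries of a fit was left out of that fit. Members and lists were chosen with earlier results of these data known. Counts were tested with edgeR 4.0.16 (quasi-likelihood, TMM, a filter of 10 or more counts in 3 or more libraries, Benjamini-Hochberg, threshold 0.05) in R 4.3.3, with 1 fit for each line, 1 for all 34 fraction libraries and 1 for the IP. CPM within a line use that line's TMM scale, CPM between lines the common scale, and IP CPM library totals. Shares were compared by exact permutation (SciPy). Alternatives were library totals, TMM from IP-detected entries, DESeq2, no filter, a replicate block, exchanged group names, all libraries kept, each library left out, members chosen by the other lines and, added after seeing the data, only entries that pass the filter through 2 or more groups. Named were the 12 leading members, up to 6 rises and 6 falls per comparison past the threshold without overlap, IP-detected members, members next to the threshold and members sharing a seed. IP libraries of the same number shared a 3′ adapter and deviated together (r from 0.34 to 0.58), so they are paired by number. The main IP fit left this pairing out, and the replicate block used it. Names were matched to RefSeq (GRCh38.p14) and introns to GENCODE on hg38, the same build. The fits were tested on simulated counts: in the setting of SHSY5Y cytoplasm (330 entries) 71.3% of 2-fold and 98.0% of 4-fold changes were recovered. The values were 57.6% and 97.8% in HEK293 cytoplasm (306 entries), and 28.4% and 91.8% in A375 cytoplasm (246 entries). The lines thus differ in how many changes can be called.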

Additional observations from a re-analysis of the deposited data

Results flagged for a closer look

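Confluency effects that differed between the 3 lines by the interaction test were found for 20 members in the cytoplasm and 5 in the nucleus, of 47 tested, where 37.9% and 8.16% of all 478 entries were called, so the members' shares lie near those of the table. In the cytoplasm the named members were miR-6869-5p (adjusted p = 4e-09), miR-6790-3p (2.3e-07), miR-6769a-3p (2.2e-06), miR-6793-5p (3.1e-06), miR-6892-3p (3.5e-06), miR-6836-5p (1.2e-05), miR-6722-3p (2.8e-05), miR-6879-5p (0.00022), miR-6816-5p (0.00084), miR-6749-3p (0.0029), miR-6891-3p (0.0067), miR-6763-3p (0.0076), miR-6765-3p (0.01), miR-6865-5p (0.022) and miR-6765-5p (0.039), all from edgeR's quasi-likelihood F test. In the nucleus they were miR-6796-3p (0.0029), miR-6789-5p (0.0054), miR-6805-3p (0.019), miR-6836-5p (0.04) and miR-6836-3p (0.041). Line and index pool cannot be told apart, so these differences hold between the pools as well as between the lines. They also rest on the deposited names of the groups, and the test was not run with the names exchanged.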

How the results depend on the processing

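Depth limits the fractions: with a median of 23407 counts per library, 34 of 81 members could not be tested. Exchanging the names of the subconfluent cytoplasmic and confluent nuclear libraries reversed 38 of the named within-line values and ended the call of 24, and turned no comparison between lines. The log2 differences in A375 cytoplasm became 0.71 for miR-6769a-3p, 0.29 for miR-6793-5p, -1.18 for miR-6724-5p, -1.20 for miR-6796-3p, -0.44 for miR-6763-3p, -2.01 for miR-6771-5p, -3.31 for miR-6803-5p, -0.88 for miR-6891-3p and -1.49 for miR-6765-5p. In A375 nuclei they became -1.06 for miR-6751-3p, -0.85 for miR-6892-3p, -0.83 for miR-6724-5p, -0.18 for miR-6796-3p, -2.49 for miR-6803-5p and -1.06 for miR-6771-5p. Between A375 nucleus and cytoplasm they became 0.70 for miR-6820-3p, 3.71 for miR-6790-3p, 1.77 for miR-6869-5p, -1.59 for miR-6724-5p, -1.20 for miR-6751-3p, -1.09 for miR-6789-5p and -2.59 for miR-6803-5p. In HEK293 cytoplasm miR-6790-3p became 0.21 and miR-6816-5p 0.44. Between HEK293 nucleus and cytoplasm they became 0.75 for miR-6801-3p, 0.91 for miR-6793-5p, 0.20 for miR-6820-3p, 0.22 for miR-6869-5p, 1.19 for miR-6756-3p, 2.80 for miR-6790-3p, 0.63 for miR-6836-3p, 0.16 for miR-6805-3p, 0.082 for miR-6789-5p and 0.23 for miR-6729-3p. In SHSY5Y, miR-6789-5p became -0.29 in cytoplasm and miR-6869-5p 0.37 between nucleus and cytoplasm. The share differences became 4.01 percentage points in HEK293 cytoplasm, 5.15 in HEK293 nucleus and, in an alternative chosen after seeing the data, 1.04 between HEK293 nucleus and cytoplasm. The counts of members became 12 higher and 0 lower in HEK293 cytoplasm, 19 higher in HEK293 nucleus, 4 higher and 1 lower between HEK293 nucleus and cytoplasm, 2 higher in A375 cytoplasm, 7 higher and 1 lower in A375 nucleus, 15 lower between A375 nucleus and cytoplasm, and 20 higher in SHSY5Y nucleus.

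Scaling by the entries detected in the IP moved the median log2 fold change of all entries to 0.56 in SHSY5Y cytoplasm, 0.80 in SHSY5Y nucleus, -0.70 between SHSY5Y nucleus and cytoplasm, -0.67 between HEK293 nucleus and cytoplasm, 0.31 in A375 nucleus, 0.46 for A375 versus HEK293 and 0.34 for SHSY5Y versus HEK293, and all changes are relative to such a choice. All entries higher and lower then numbered 150 and 36 in SHSY5Y cytoplasm, in place of 117 and 88, and 38 and 168 between SHSY5Y nucleus and cytoplasm, in place of 118 and 130. Members higher became 2 in HEK293 cytoplasm (also with DESeq2) and 22 in SHSY5Y nucleus, members lower 3 between A375 nucleus and cytoplasm, and members higher and lower 21 and 3 for A375 versus HEK293. Library totals gave 21 higher in SHSY5Y nucleus. Without the filter on low counts, 16 were lower in HEK293 cytoplasm, 10 lower in A375 cytoplasm, 3 higher in SHSY5Y nucleus and 0 higher in the IP, as with DESeq2 (0). The causes were not tested. Keeping only entries that pass the filter through 2 or more groups, a choice made after seeing the data, gave 2 lower in HEK293 cytoplasm and 3 lower in A375 cytoplasm, since fewer members were then tested, and moved no other count of members by over 1.5 times. This choice keeps members that pass through the confluent cytoplasm and the confluent nucleus of A375 alone.

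Leaving out each library in turn gave 1 to 5 members higher and 1 to 9 lower in HEK293 cytoplasm, 2 to 8 and 3 to 6 in A375 cytoplasm, 8 to 14 and 0 to 1 in A375 nucleus, 20 to 25 higher in SHSY5Y cytoplasm, 7 to 17 higher in SHSY5Y nucleus, 15 to 22 lower between HEK293 nucleus and cytoplasm, 25 to 30 lower between SHSY5Y nucleus and cytoplasm, 4 to 9 higher and 4 to 5 lower between A375 nucleus and cytoplasm, 13 to 17 higher and 3 to 6 lower for A375 versus HEK293, and 0 to 1 higher in the IP.

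Outside the IP, equal replicate numbers did not pair the libraries (r of confluent with subconfluent from -0.17 to 0.18). A replicate block gave 1 member lower in A375 nucleus, 5 lower for SHSY5Y versus HEK293 and 8 lower for A375 versus SHSY5Y. In the IP, where the libraries are paired, the replicate block left 1 member higher. It moved no other count of members by over 1.5 times.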
